A study of Oryza sativa with 6 samples.

Results

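A group of 523 probe sets divided the 6 root arrays of a rice study in a way that cut across its genotypes. The arrays came from roots of the transgenic rice line Huahui 1 (HH1), whose background cultivar is Minghui 63, and of the non-transgenic cultivar Minghui 63 (MH63). Each genotype had 3 biological replicates with 1 Affymetrix rice array each. All plants were 30 days old and were raised on nutrient solution in a climate chamber, and no treatment is recorded for either genotype. HH1 is 1 line, and the transgene it carries is not given in the labels. The first set of arrays, here set A, held HH1 replicates 1 and 3 and MH63 replicate 3. The other, set B, held HH1 replicate 2 and MH63 replicates 1 and 2. A probe set belonged to the group when its mean log2 signal over the 6 arrays was above 6, its set means differed by at least 0.8 on the log2 scale, and no array of one set overlapped the other set. Of 57194 probe sets without the array's controls, 21170 passed the limit of brightness. Among these, 458 (2.16%) read higher in set B and 65 (0.307%) read higher in set A. The members were chosen by these same signals, so the differences between the sets are given as a description without a test, and the counts show only how many probe sets met the rule. No gene had members in both directions.

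Most members had no gene name or lay on none of the gene lists used here, and the background that follows concerns the named ones. Roots in nutrient solution depend on dissolved oxygen, and when it runs short plant cells turn pyruvate into ethanol through pyruvate decarboxylase and alcohol dehydrogenase, while non-symbiotic haemoglobins, also called phytoglobins, remove nitric oxide. Roots normally hold plastids without chlorophyll, and genes of light harvesting and chlorophyll synthesis are mostly silent there, although roots that receive light can turn green. Lipid transfer proteins, chitinase-like proteins and metallothioneins are plant protein families studied for their parts in surface layers, defence and metal binding.

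The arrays had similar overall brightness, with median signals of 33.1 to 33.8, and the 95th percentile of 64 reporter probe sets, which stand for foreign marker genes and here mark the level of no measurable rice transcript, was 37.1 to 42.3. The probe set for 18S ribosomal RNA read 3446 in HH1 replicate 2, 1144 and 1457 in MH63 replicates 1 and 2, and 811 to 1097 in set A. The 25S probe set also had no overlap of the sets, at 909 to 1475 in set A and 1724 to 2537 in set B. The 28S readings of the sets overlapped. The ratio of 3′ to 5′ actin signal, a sign of RNA integrity, was 4.001 to 6.21 and was highest in MH63 replicate 3. Correlations of log2 signals between arrays, across probe sets, ran from 0.904 for HH1 replicates 2 and 3 to 0.979 for HH1 replicate 3 and MH63 replicate 3. Of 6 root markers, 5 read above the reporter level on all 6 arrays, among them the silicon transporter Lsi2 at 947 to 1712. Of 8 seed storage markers, 3 were bright enough to measure, with a summed signal of 8515 in HH1 replicate 1 against 308 to 851 on the others. GLUA-2, among these, read 240 to 327 on all 6 arrays. Below the limit of brightness, GLUA-3 read 110, 157 and 51.6 in HH1 and 6.86 to 11.1 in MH63. The actin ratio peaked and the summed seed markers were high on single arrays of set A, while 18S and 25S ribosomal RNA followed the whole division. The part of these differences in the results below was not tested. In RNA from whole roots, fewer cells of a type and less RNA per cell cannot be told apart.

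The direction higher in set B was the larger in number and in size. Of its 458 probe sets, 342 had exactly 1 gene in the array's annotation, which gave 300 genes, while 111 had none and 5 had several. The median difference of set means was 1.30 on the log2 scale, from 0.80 to 7.87, and 95 probe sets differed by more than 2 and 41 by more than 3. The probe sets just inside the limit of the difference were at 0.8003 and 0.8008, and those just outside were at 0.7980, for the DnaJ-type chaperone gene OsDjA6, and at 0.7973. The 65 probe sets higher in set A named 39 genes and differed less, with a median of 0.97 and a maximum of 1.53. Just inside the limit they stood at 0.8119 and 0.8230, and just outside at 0.7925 and 0.7916. Ignoring the size of the difference, 1976 probe sets (9.33%) read higher in set B with no overlap and 1736 (8.20%) read higher in set A, so the limit of 0.8 removed a larger share of the second direction.

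The replicate with the highest ribosomal RNA readings also had the most extreme readings of the group. HH1 replicate 2 was the highest array for 309 of the 458 probe sets, MH63 replicate 2 for 101 and MH63 replicate 1 for 48. Relative to each probe set's mean over the 6 arrays, the median log2 deviation was 1.11 in HH1 replicate 2, 0.55 in MH63 replicate 2 and 0.38 in MH63 replicate 1. The arrays of set A were alike, at -0.68 for both HH1 arrays and -0.67 for MH63 replicate 3. For the 65 probe sets of the other direction, HH1 replicate 2 was the lowest array in 57 and had a median deviation of -0.97, beside -0.38 in MH63 replicate 2 and -0.12 in MH63 replicate 1. MH63 replicate 3 lay closer to the middle there, at 0.27, than HH1 replicates 1 and 3, at 0.52 and 0.65.

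**Figure D1:**
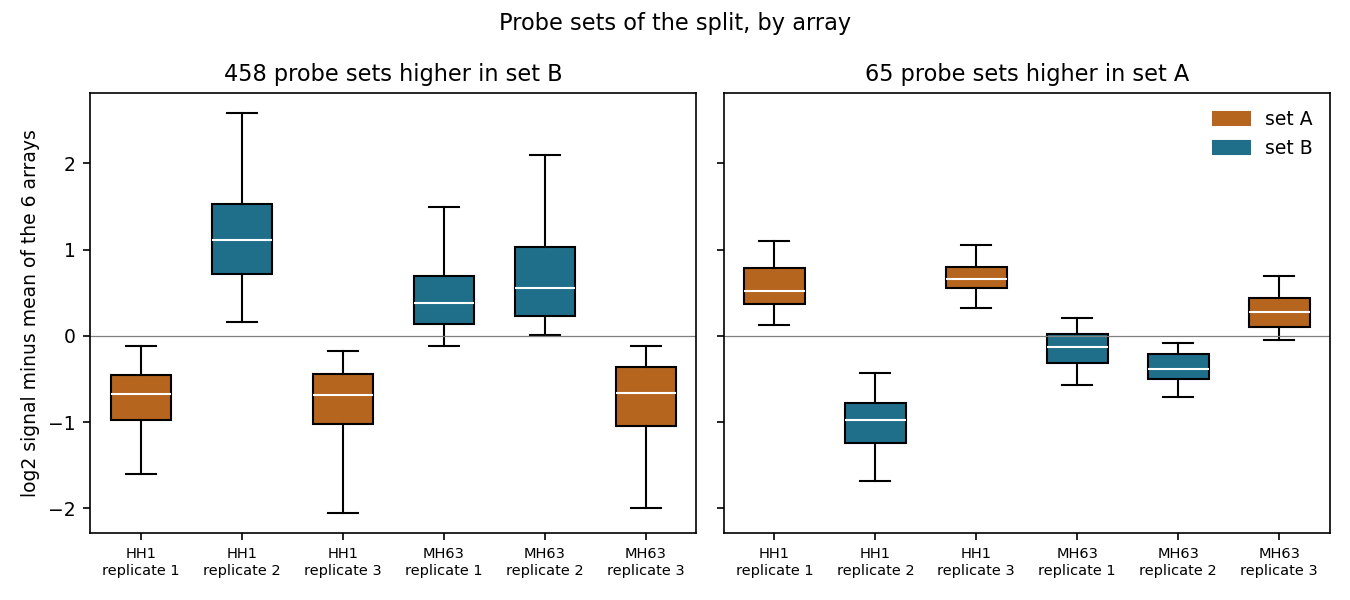
Log2 signal minus the mean of the 6 arrays for the 458 probe sets higher in set B (left) and the 65 higher in set A (right), by array. Boxes span the quartiles, the line is the median and whiskers reach from the 5th to the 95th percentile. HH1 replicate 2 has the most extreme median on both sides, at 1.11 and -0.97.

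Within each genotype the division had a different size. Among the 458 probe sets, the median of set A minus set B was -1.72 within HH1, where it compares replicates 1 and 3 with replicate 2, and -1.05 within MH63, where it compares replicate 3 with replicates 1 and 2. A difference of at least 0.8 was reached within HH1 by 416 probe sets, within MH63 by 290 and within both by 249. Among the 65 probe sets higher in set A, the medians were 1.65 within HH1 and 0.46 within MH63, and 9 reached 0.8 within both genotypes. In that direction 63 of 65 probe sets reached 0.8 within HH1 and 11 within MH63. Inside set B, HH1 replicate 2 minus the mean of MH63 replicates 1 and 2 had a median of 0.68 for the 458 probe sets. Inside set A, the mean of HH1 replicates 1 and 3 minus MH63 replicate 3 had a median of -0.04. Each of these medians rests on a single array of 1 genotype, so neither measures a difference between the genotypes. Over all probe sets above the limit of brightness the same medians were -0.08 and 0.02.

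**Figure D2:**
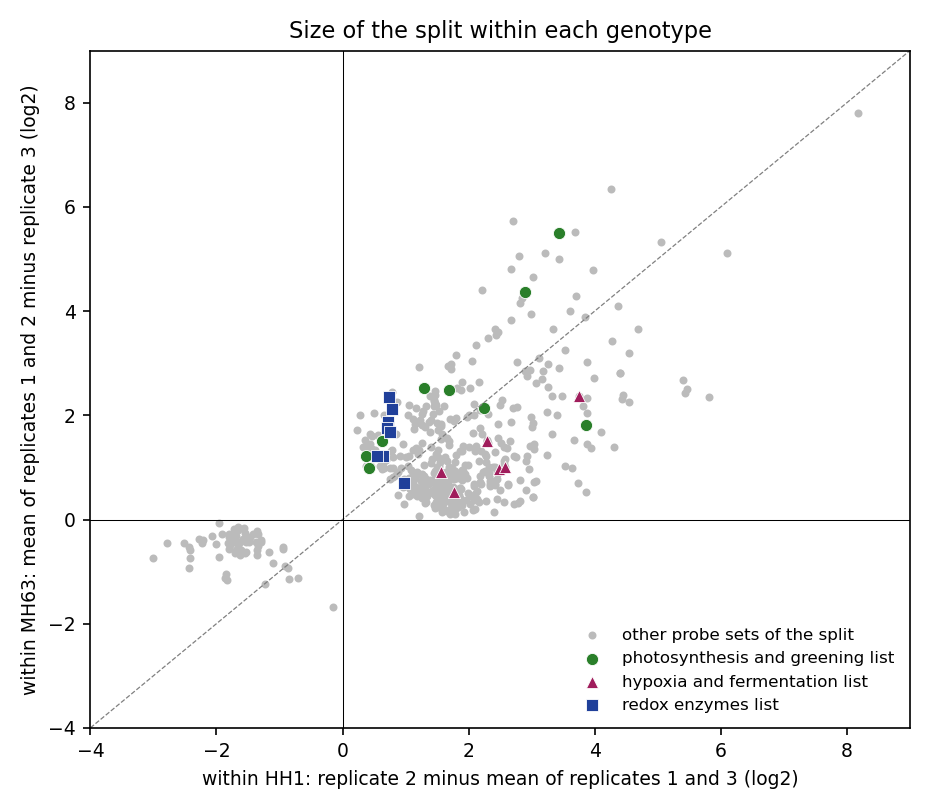
Each point is a probe set of the group, with the log2 difference within HH1 (replicate 2 minus the mean of replicates 1 and 3) on the x axis and within MH63 (mean of replicates 1 and 2 minus replicate 3) on the y axis; the dashed line marks equal differences. Points of the hypoxia list (triangles) lie below the line and most of the greening list (circles) and metallothioneins of the redox list (squares) lie above it.

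Genes of light harvesting and chlorophyll synthesis were among the largest differences. CAB2R, a chlorophyll a/b-binding protein of the light-harvesting antenna, read 166, 1109 and 63.2 in HH1 replicates 1, 2 and 3 and 1368, 1373 and 30.2 in MH63 replicates 1, 2 and 3. Its set B arrays lay far above all set A arrays, a difference of at least 16.7-fold between the geometric means. Where some arrays of the lower set were at or below the reporter level, here MH63 replicate 3, they were taken at that level and the difference is a lower bound. Without HH1 replicate 1 the CAB2R difference as read was 29.2-fold and without MH63 replicate 3 it was 12.5-fold, beside 18.7-fold on all arrays. LHCP on chromosome 3, another antenna protein, read 89.0, 372 and 31.2 in HH1 and 554, 638 and 33.3 in MH63, a difference of at least 9.76-fold, with 1 of 3 set A arrays above the reporter level. For both antenna genes HH1 replicate 1 was the highest array of set A and HH1 replicate 2 the lowest of set B.

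ADI1, given in the annotation as a ferredoxin, read 29.5, 154 and 27.5 in HH1 and 149, 328 and 18.9 in MH63. All its set A arrays were at or below the reporter level, so the difference was at least 4.96-fold, and its probe set can bind related transcripts. PSAH (listed as GOS5), a subunit of photosystem I, read 36.5, 142 and 24.6 in HH1 and 147, 143 and 32.9 in MH63, and its difference was at least 3.64-fold for the same reason. PORB, a protochlorophyllide reductase that carries out the light-dependent step of chlorophyll synthesis, read 64.6, 186 and 50.8 in HH1 and 234, 216 and 40.2 in MH63, a difference of at least 4.07-fold on a probe set that can bind related transcripts. The set B arrays of these genes lay close together, between 142 and 147 for PSAH and between 186 and 234 for PORB.

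Other genes of the chloroplast met the rule and were chosen for mention after their values were seen. PETE, plastocyanin of the photosynthetic electron chain, read 177, 407 and 155 in HH1 and 515, 797 and 111 in MH63. CHLP, the geranylgeranyl reductase of chlorophyll and tocopherol synthesis, read 63.7, 126 and 52.8 in HH1 and 218, 199 and 54.5 in MH63. LP02, also annotated OEE3 after the oxygen-evolving enhancer of photosystem II, read 83.5, 258 and 106 in HH1 and 383, 435 and 83.6 in MH63. In these 3 genes the MH63 arrays of set B exceeded HH1 replicate 2. The cytochrome Rieske protein ISP also met the rule, at 79.9, 97.5 and 65.8 in HH1 and 146, 200 and 86.1 in MH63, with differences, set A minus set B, of -0.43 within HH1 and -0.99 within MH63.

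Across the list of photosynthesis and greening genes, 16 of 23 genes were bright enough to measure, and 8 of them (50.0%) had member probe sets, all higher in set B, where 300 of all 13100 genes measured (2.29%) did. The list's median difference, set A minus set B, was -0.50, with 13 of 16 genes below 0, where the median over all genes measured was 0.02 and 6115 were below 0. The search terms of this list were narrowed after values had been seen, so its share and median are a description and no support. The list's mean deviation was -0.47, 0.39 and -0.51 in HH1 replicates 1, 2 and 3 and 0.49, 0.60 and -0.49 in MH63 replicates 1, 2 and 3. Of the list's 9 member probe sets, HH1 replicate 2 was the highest array only for PPDK2. For OsrbcS, the small subunit of Rubisco, and OsGLO1, a glycolate oxidase, the member was a dimmer probe set, and the brightest probe set of each gene did not meet the rule, so these are uncertain. Some greening genes below the limit of brightness had the same order of arrays. OsGLK1, a transcription factor of chloroplast development, read 15.2, 35.0 and 19.5 in HH1 and 59.7, 50.7 and 21.1 in MH63. CHLH, a magnesium chelatase subunit, read 15.8, 38.9 and 17.9 in HH1 and 66.5, 54.5 and 20.4 in MH63, with only the MH63 arrays of set B above the reporter level in both genes. Other chelatase subunits on the list did not follow. CHL1 (CHLD), bright enough to measure, had a difference of -0.003, set A minus set B. CHL9 (CHLI) was at 0.27, with no array above the reporter level.

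Fermentation and haemoglobin genes formed another part of the group, with HH1 replicate 2 above all other arrays. PDC1, a pyruvate decarboxylase on chromosome 5, read 1641, 8381 and 236 in HH1 and 3159, 4506 and 732 in MH63, a 7.49-fold difference that was 4.49-fold without HH1 replicate 3 and 11.8-fold without HH1 replicate 1. PDC2, the pyruvate decarboxylase on chromosome 3, read 287, 1540 and 345 in HH1 and 925, 641 and 272 in MH63, a 3.24-fold difference. A second probe set of PDC2 read 2990, 9579 and 3484 in HH1 and 6364, 6378 and 3406 in MH63. PDC1 varied widely within set A, while each probe set of PDC2 was nearly level there.

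OsNSHB2, a phytoglobin, read 1542, 8649 and 1555 in HH1 and 3302, 3024 and 1611 in MH63, a 2.82-fold difference. OsNSHB1, another phytoglobin, read 912, 5710 and 999 in HH1 and 1650, 1592 and 804 in MH63, a 2.74-fold difference, or 1.80-fold without HH1 replicate 2, on a probe set that can bind related transcripts. For both genes the MH63 arrays of set B lay well below HH1 replicate 2 and above set A. The hypoxia and fermentation list had 13 measured genes, of which 4 (30.8%) had members, beside 2.29% of all genes, with 6 probe sets, and HH1 replicate 2 was the highest array for each of the 6. The list's median difference was -0.72, set A minus set B, with 9 of 13 genes below 0. This list was narrowed after its values were seen, because its first search terms also took in genes of other families. As first matched it had 19 measured genes, 4 of them (21.1%) with members, and a median of -0.31, so the larger share and median are no support. Adh2, the alcohol dehydrogenase on the list, was not a member and read 4476, 10969 and 4852 in HH1 and 7382, 7008 and 5858 in MH63. Its sets did not overlap, but its difference of -0.72, set A minus set B, was smaller than the limit of 0.8. PDC3, a further pyruvate decarboxylase on the list, was not a member either, with a difference of 0.02, set A minus set B.

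PPDK2, a pyruvate phosphate dikinase that interconverts pyruvate and phosphoenolpyruvate, read 613, 10977 and 921 in HH1 and 3811, 5740 and 1330 in MH63, a 6.84-fold difference on a probe set that can bind related transcripts. BFRP, annotated as PDRP1, the regulatory protein of this enzyme, also met the rule, at 362, 1991 and 313 in HH1 and 609, 795 and 319 in MH63, and was chosen after its values were seen. HH1 replicate 2 was well above every other array in both genes. NIA1, a nitrate reductase, read 847, 2905 and 980 in HH1 and 1250, 1353 and 790 in MH63, a 1.96-fold difference. It was the 1 member among 14 measured genes of nitrogen uptake and assimilation (7.14%, beside 2.29% of all genes measured).

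Lipid transfer proteins and a chitinase-like protein were also members. LTP2-B, a lipid transfer protein on chromosome 12, read 113, 899 and 19.6 in HH1 and 855, 1779 and 15.1 in MH63, a difference of at least 19.7-fold. LTP, its neighbour in the gene order, read 46.6, 131 and 33.9 in HH1 and 155, 351 and 29.5 in MH63, a difference of at least 4.59-fold. Both probe sets can bind related transcripts, and HH1 replicate 1 was the only array of set A above the reporter level in each. Without it the LTP2-B difference as read was 64.6-fold, beside 34.5-fold on all arrays. The next gene along, LOC4351319, was a member as well and read 25.01, 190 and 19.1 in HH1 and 161, 225 and 22.3 in MH63. Since its probe set can also bind related transcripts, the 3 neighbours may share signal.

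Chib3H-a, annotated as a chitinase and as the xylanase inhibitor RIXI, read 217, 1422 and 70.4 in HH1 and 972, 846 and 95.01 in MH63, a 9.31-fold difference. It began a run of 4 neighbouring members on chromosome 11, none on a probe set known to bind related transcripts. LOC4351195 read 331, 1704 and 493 in HH1 and 1254, 996 and 352 in MH63. LOC4351197 read 1734, 5115 and 1060 in HH1 and 2323, 3085 and 1001 in MH63. LOC4351198 read 215, 3696 and 294 in HH1 and 1700, 1885 and 220 in MH63, and HH1 replicate 2 was the highest array for all 4 genes. Shortly before this run in the gene order, LOC4351191 read 164, 3227 and 141 in HH1 and 728, 1257 and 136 in MH63, and its neighbour LOC4351190 was a member too. Of the 300 genes higher in set B, 21 lay directly next to another such gene, in 9 runs, and none of the 39 genes higher in set A did. The number expected for so many genes was not worked out, so nothing is read from these counts. By chromosome, genes higher in set B made up from 1.64% of the measured genes on chromosome 12 to 3.88% on chromosome 10.

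Protein phosphatases and other regulators also met the rule, mostly as 1 member of a list, which for the longer lists is a share near the 2.29% of all genes. OsPP2C45, a type 2C protein phosphatase of the family that acts in abscisic acid signalling, read 1098, 5327 and 418 in HH1 and 2040, 4599 and 418 in MH63, a 6.39-fold difference. It was the 1 member among 66 measured genes of the abscisic acid and dehydration list. OsBIPP2C1, another phosphatase of this type, read 133, 538 and 109 in HH1 and 577, 669 and 99.5 in MH63, a 5.24-fold difference with narrow spread inside both sets. CDKE-1, a cyclin-dependent kinase of the Mediator complex, read 157, 1263 and 179 in HH1 and 475, 679 and 261 in MH63, a 3.82-fold difference, and was the 1 member among 49 measured cell cycle genes.

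SAUR39, a small auxin-responsive protein, read 46.0, 303 and 79.1 in HH1 and 176, 237 and 102 in MH63, a 3.24-fold difference. OsMYBS1, a MYB factor that activates alpha-amylase genes when sugar is low, read 63.7, 207 and 135 in HH1 and 204, 165 and 105 in MH63, a 1.97-fold difference. CBF3, a DREB1-type factor of cold responses, read 54.3, 166 and 41.9 in HH1 and 77.0, 81.0 and 68.1 in MH63, a 1.88-fold difference. In CBF3 the MH63 arrays were nearly level, with a difference within MH63 of -0.21, set A minus set B, and HH1 replicate 2 alone stood out. SAUR39 was the 1 member among 50 measured auxin genes (2.00%), OsMYBS1 the 1 among 10 MYB factors (10.0%) and CBF3 the 1 among 7 ERF and DREB factors (14.3%). Over all genes measured 2.29% were higher in set B, and nothing is read from single members of a list.

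Metallothioneins, small cysteine-rich proteins that bind metals, read high on every array. OsMT-I-2c read 3177, 3946 and 1762 in HH1 and 6948, 7612 and 1432 in MH63, a 2.96-fold difference. OsMT-I-2b read 4246, 5077 and 2519 in HH1 and 5864, 6191 and 2589 in MH63, a 1.88-fold difference. OsMT-2 read 1978, 3960 and 2032 in HH1 and 3211, 3546 and 2084 in MH63, a 1.75-fold difference. OsMT-I-2c and OsMT-I-2b differed more within MH63 and OsMT-2 more within HH1, and all 3 probe sets can bind related transcripts. These genes gave all 8 member probe sets of the redox list, whose 50 measured genes had a median difference of -0.02. The 3 genes were 6.00% of those 50, beside 2.29% of all genes measured, and none of the enzymes on that list was a member.

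Cell wall and membrane proteins fell on both sides. OsEXP6, an expansin, which loosens cell walls, read 50.0, 178 and 39.1 in HH1 and 141, 200 and 41.9 in MH63, a difference of at least 3.93-fold. EXLA2, an expansin-like protein listed as OsaEXPb2.2, read 165, 827 and 196 in HH1 and 511, 347 and 263 in MH63, a 2.58-fold difference. Os-EXPA2 read 305, 421 and 303 in HH1 and 597, 697 and 251 in MH63, a 1.96-fold difference. OsEXP1 was on the opposite side, at 1035, 451 and 1290 in HH1 and 706, 546 and 726 in MH63, and read 1.77-fold higher in set A. Over the 45 measured expansins and wall enzymes the median difference was 0.33, set A minus set B, opposite to the 3 expansin genes higher in set B. These 3 were 6.67% of the 45 genes, beside 2.29% of all genes measured. Higher in set A was 1 of the 45 (2.22%), beside 0.298% of all genes measured. OsCASPL2A1, of the family related to the Casparian strip membrane proteins, read 60.1, 227 and 25.5 in HH1 and 201, 189 and 39.6 in MH63, a difference of at least 4.48-fold. OsAPY3, an apyrase that hydrolyses nucleotides, read 90.6, 377 and 15.4 in HH1 and 162, 416 and 20.4 in MH63, a difference of at least 5.61-fold, and its MH63 replicate 1 was the lowest array of set B.

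**Figure D3:**
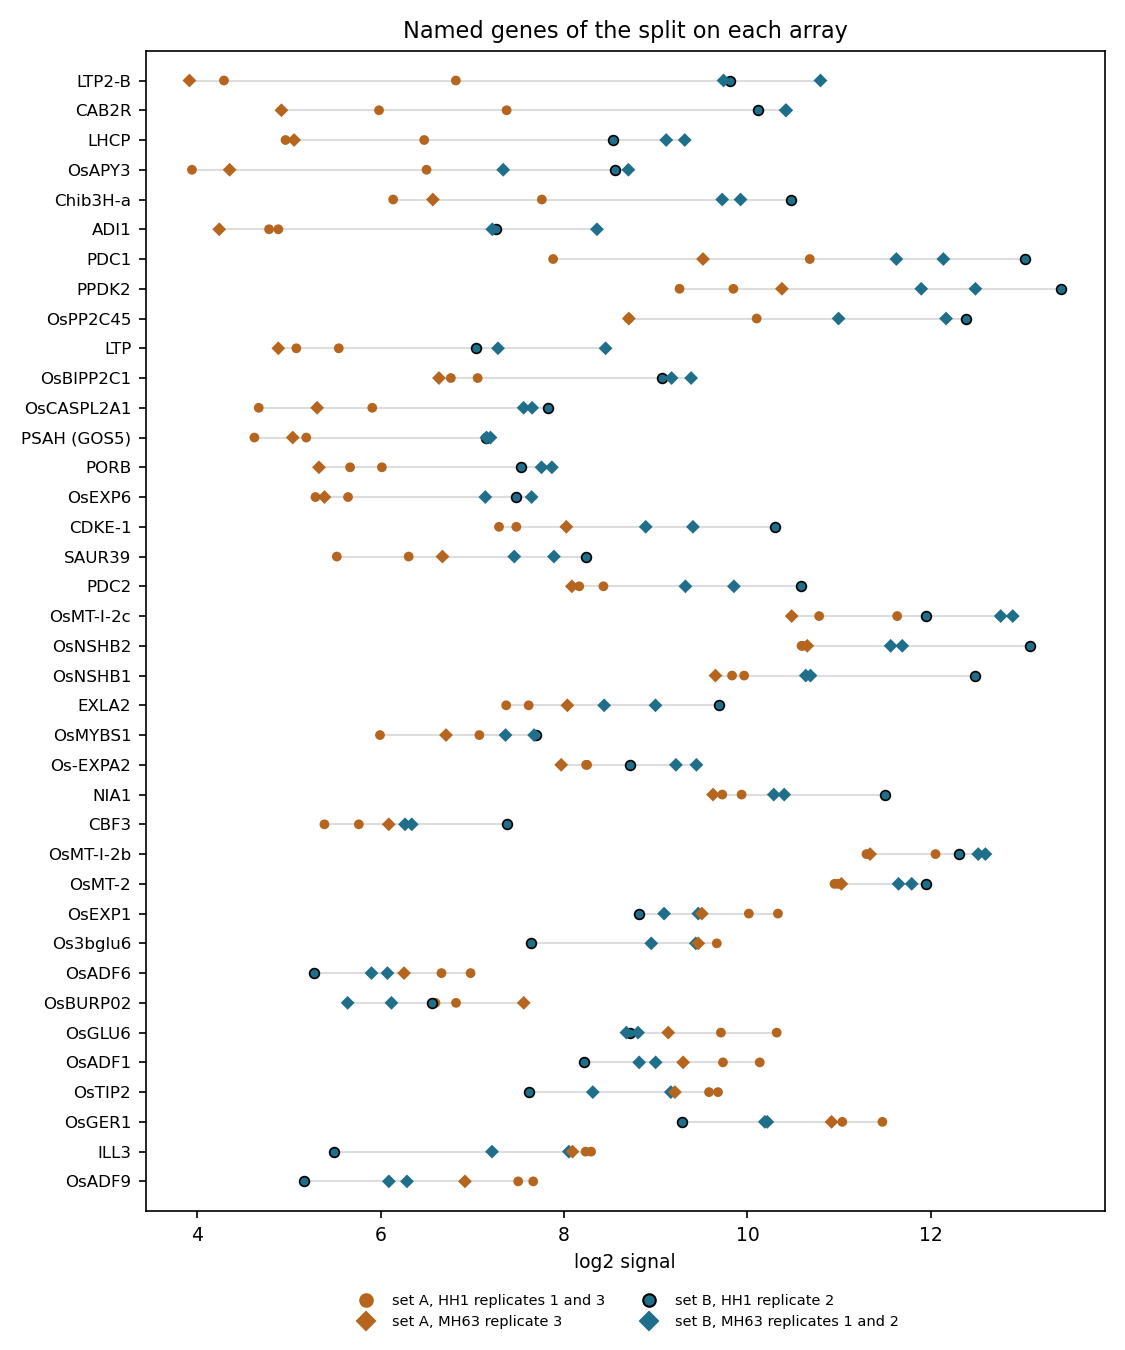
Log2 signal of each named gene on the 6 arrays, with set A in orange and set B in blue, HH1 as circles and MH63 as diamonds; the outlined circle is HH1 replicate 2, and levels of different genes are not comparable. Upper rows are genes higher in set B and the lowest 10 rows are genes higher in set A, where HH1 replicate 2 is the lowest array in 8 of 10.

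Large differences were also read for genes that the annotation lists by number alone. LOC4327106 on chromosome 1 read 5.64, 1661 and 5.87 in HH1 and 838, 1545 and 5.12 in MH63. All its set A arrays were below the reporter level, so the difference was at least 32.7-fold, and its second probe set read 54.7, 3863 and 57.8 in HH1 and 2186, 3236 and 76.4 in MH63. Both can bind related transcripts. LOC4330227 on chromosome 2 read 16.4, 546 and 16.5 in HH1 and 441, 1252 and 18.6 in MH63, at least 17.0-fold. In all, 17 members had every set A array at or below the reporter level. Of the members without a gene, the probe set with the largest difference read 19.3, 219 and 14.6 in HH1 and 307, 488 and 19.8 in MH63, and another read 204, 5900 and 95.8 in HH1 and 948, 2956 and 262 in MH63. The second was 14.8-fold higher in set B as read, 9.70-fold without HH1 replicate 2 and 24.2-fold without MH63 replicate 1. The first of these was below the reporter level throughout set A, whereas the other stayed above the reporter level on all 6 arrays. The ID of that other probe set begins with the same number as the ID of the PDC1 probe set. Whether both read the same transcript was not tested.

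Among the named genes higher in set A were 3 actin-depolymerising factors, which sever and recycle actin filaments. The family was picked after the members were seen. Of its 8 measured genes, 3 were members, beside 0.298% of all 13100 genes measured. In the family, 6 genes lay above 0 and the median difference, set A minus set B, was 0.20. Over all genes measured 6985 lay above 0 and the median was 0.02. Most genes of the family did not meet the rule, and nothing is read from its share. OsADF9 read 203, 35.9 and 181 in HH1 and 68.1, 78.1 and 121 in MH63, at least 2.73-fold higher in set A. OsADF1 read 1124, 298 and 851 in HH1 and 512, 452 and 630 in MH63, 2.06-fold higher. OsADF6 read 126, 38.8 and 101 in HH1 and 67.4, 59.7 and 76.4 in MH63, at least 1.81-fold higher. In all 3 genes HH1 replicate 2 was the lowest array and HH1 replicate 1 the highest, and the MH63 arrays lay between.

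ILL3, related to the hydrolases that free auxin from its conjugates, read 302, 44.8 and 314 in HH1 and 266, 149 and 273 in MH63, 2.45-fold higher in set A, or 1.49-fold without HH1 replicate 2, which is under the limit of the rule. OsGER1 read 2098, 627 and 2842 in HH1 and 1190, 1168 and 1935 in MH63, 2.37-fold higher. OsTIP2, an aquaporin of the vacuolar membrane, read 820, 196 and 766 in HH1 and 574, 318 and 592 in MH63, 2.18-fold higher, and was the 1 member among 20 measured aquaporins. In ILL3 and OsTIP2 MH63 replicates 1 and 3 were nearly level, so the division was carried by HH1 replicate 2 and MH63 replicate 2.

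OsGLU6, a glucanase, read 1278, 422 and 838 in HH1 and 410, 448 and 563 in MH63, 1.98-fold higher in set A. Os3bglu6, a beta-glucosidase, read 695, 199 and 813 in HH1 and 693, 495 and 706 in MH63, 1.80-fold higher, or 1.26-fold without HH1 replicate 2. OsBURP02, a BURP-domain protein, read 96.9, 94.0 and 113 in HH1 and 69.5, 49.9 and 189 in MH63, 1.85-fold higher. OsBURP02 differed from the rest in that HH1 was nearly level and MH63 replicate 3 stood out. Of the members without a gene, the probe set with the largest difference in this direction read 1307, 219 and 2349 in HH1 and 1105, 871 and 1638 in MH63, 2.88-fold higher in set A or 1.75-fold without HH1 replicate 2, and the next read 124, 50.4 and 260 in HH1 and 104, 68.0 and 187 in MH63.

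Among 27 gene lists, 16 held no member, including 0 of 10 measured circadian clock genes, 0 of 37 jasmonate genes, 0 of 14 diterpenoid phytoalexin genes, 0 of 33 heat shock genes, 0 of 20 phosphate starvation genes, 0 of 24 iron acquisition genes and 0 of 25 reference genes. With 2.29% of all measured genes higher in set B and 0.298% higher in set A, lists of these lengths can be empty at the overall share, and nothing is read from the zeros. The jasmonate list had a mean deviation of 0.47, 0.54 and -0.42 in HH1 replicates 1, 2 and 3 and of -0.29, -0.10 and -0.20 in MH63 replicates 1, 2 and 3, an order of arrays other than the division described here. The diterpenoid list was similar, at 1.25, 1.39 and -1.26 in HH1. The reference genes, with a median difference of 0.15, deviated by -0.20 in HH1 replicate 2 and by less than that on each other array.

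**Figure D4:**
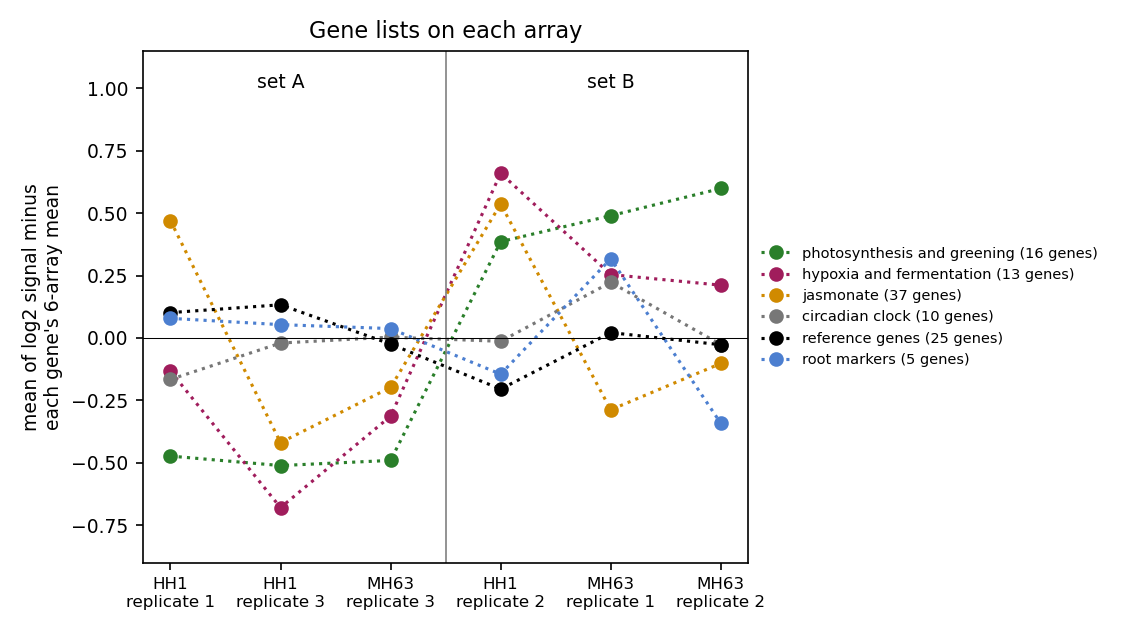
Mean deviation of 6 gene lists on each array, as the mean over genes of log2 signal minus the gene's 6-array mean; the vertical line separates set A (left) from set B (right) and dotted lines only guide the eye. The greening list is between -0.51 and -0.47 on the arrays of set A and between 0.39 and 0.60 on those of set B, while the jasmonate list is high in HH1 replicates 1 and 2.

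Some member genes had other bright probe sets that were put to the same rule and did not meet it. Further probe sets that met the rule, in 33 of the genes higher in set B, are not counted here. Of the 300 genes higher in set B, 30 had 32 further bright probe sets outside the group. Of these, 29 (90.6%) had the same sign, 11 also had no overlap of the sets, and the median difference was -0.39, set A minus set B. Among probe sets of other genes 45.6% had that sign. For the genes higher in set A, 5 of 5 further probe sets had the same sign, beside 52.9% among other genes. These probe sets are read on the same arrays and often share target sequence with the members, so they bear on the genes measured and not on the samples.

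The comparison of genotypes, which the study's design provides for, called none of these probe sets. In limma, with the arrays of both genotypes and Benjamini-Hochberg adjustment over 28597 probe sets, 32 (0.112%) were called at an adjusted p under 0.05. Of these, 24 (0.0839% of those tested) had the higher mean in HH1 and 8 (0.0280%) had the lower. Not 1 of the 523 members was called in this fit or in any of its 12 alternatives. At an unadjusted p under 0.05 there were 8 members and 1147 probe sets in all, and the smallest unadjusted p of a member was 0.020, with an adjusted p of 1 in limma. This was fixed in part by the choice of members, since each genotype has arrays in both sets and the sets do not overlap, so the genotypes overlap for every member. PDC1 differed by -0.56 on the log2 scale between HH1 and MH63 and CAB2R by -0.76, and limma gave both an adjusted p of 1, although single arrays of 1 genotype differed many-fold.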

How the data were processed

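Total RNA of roots was labelled with biotin and hybridised to Affymetrix rice arrays, per the labels' protocols. The values analysed are the deposited probe set intensities on a linear scale, made by the authors with MAS5, per the submitters' processing notes, with no version and no detection calls. Array medians were nearly equal, and how the arrays were scaled is not given in these sources. Intensities were used as deposited after log2. The number of arrays limits precision, as do signals near the reporter level for dim genes, and p-values cover the spread between these samples.

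The members and gene lists were chosen with earlier results of these data known. The hypoxia and greening search terms were narrowed after values had been seen, because they took in unrelated genes. Of 57194 probe sets, 22436 had 1 gene in the array annotation, 95 had several and 34663 had none listed. Symbols and gene order came from RefSeq assembly ASM3414082v1, and no coordinates are given because the sources used here give no build for the array. Each list took the brightest probe set of a gene.

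Named genes were the 12 with the largest difference of set means in each direction among those with a name, up to 4 members of each list, the probe sets at the limit of the difference and up to 2 members without a gene in each direction. Genes outside this rule are marked as such or are neighbours in a run or numbered loci, chosen after their values were seen. Probe set IDs with the ending _s_at or _x_at were taken as able to bind related transcripts. Arrays of the lower set at or below the reporter level (the 95th percentile of reporter probe sets) were taken at that level, and the difference is given as a bound. Genotypes were compared with limma 3.58.1 in R 4.3.3, with a trend, on the 28597 brightest probe sets, and the fit was tested on simulated data. Same-numbered replicates of the genotypes had correlated deviations of -0.117, 0.451 and 0.312, and 0.451 and 0.312 were the largest of any HH1 and MH63 pair. Both replicates 2 lay in set B and both replicates 3 in set A, while the replicates 1 were divided. The main fit took no pairing, the replicate number as a block is among the alternatives, and a link of replicate number to the division was not tested. The labels give no batch. Alternatives in scaling, offset, filters, trend, replicate block and left-out arrays are in the closing section.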

Additional observations from a re-analysis of the deposited data

How the results depend on the processing

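The 458 probe sets higher in set B became 741 with no brightness limit and 300 when counted once per gene, a count chosen after seeing the data, and 368 to 635 with 1 array left out. The 65 higher in set A became 43 with a mean log2 above 7, 30 with a difference of at least 1.0 and 39 per gene. With 1 array left out they numbered 57 to 254, with 254 without MH63 replicate 1, 106 without MH63 replicate 2 and 173 without MH63 replicate 3. A rule over 5 arrays is easier to meet, since fewer arrays must not overlap. Without HH1 replicate 2, the array with the highest ribosomal RNA, 313 of the 458 and 30 of the 65 still met the rule. Quantile normalization, median centring, the offset and leaving out shared-transcript probe sets gave 319 to 484 and 53 to 72. Of 378 values for 42 named probe sets over 9 alternatives, 374 moved by less than the spread within the sets, which was wide, 4 moved by more with the offset and 0 changed sign. With 1 array left out, 8 of the 42 moved by over 1.5 times in at least 1 case and 12 fell under the limit of 0.8. Without HH1 replicate 2 alone, 8 did so, namely ILL3 (0.57), OsTIP2 (0.75), OsADF6 (0.65), Os3bglu6 (0.33), OsEXP1 (0.67), CBF3 (-0.56), NIA1 (-0.58) and OsMT-2 (-0.73). OsAPY3, 9.62-fold as read, was 16.6-fold without HH1 replicate 1.

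The 32 genotype calls became 54 when the filter on dim probe sets was dropped, so that more were tested. Taking the replicate number as a block gave 17. With 1 array left out there were 0 (without HH1 replicate 1, where limma gave 843 an unadjusted p under 0.05) to 306 (without HH1 replicate 3), with 1, 20 and 13 without MH63 replicates 1, 2 and 3, and the cause was not tested. In each of these settings 0 members were called, with 0 to 184 of them at an unadjusted p under 0.05. Signals near the reporter level limit the differences of dim genes.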
